A study of Mus musculus with 6 samples.

Results

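Rbm3 and Cirbp encode the cold-inducible RNA-binding proteins RBM3 and CIRBP, and they were followed in marginal zone (MZ) B cells of CD55KO and WT mice. They are 2 of the 55487 genes in the deposited table and were taken by their gene names. The pair was chosen with the CD55KO against WT difference of these same libraries known, so the differences between the genotypes in Rbm3 and Cirbp are given as a description, with no test. MZ B cells of 14-week-old animals were enriched by negative selection for B cells and then flow sorted, and bulk RNA was sequenced in 3 libraries from CD55KO mice and 3 libraries from WT C57BL/6 mice. CD55 is a membrane regulator that restrains complement on the surface of its own cell. No further allele, transgene or treatment is given for either genotype. The background strain of the CD55KO mice, the deleted part of Cd55, and the animals behind each library (1 mouse or a pool) are not stated in the sources at hand. The p-values for other genes are therefore set by library-to-library spread alone, and that spread may be technical.

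RBM3 and CIRBP are small, closely related proteins with an RNA recognition motif followed by a glycine-rich tail. Their transcripts are known to become more abundant when cells are cooled mildly and less abundant when cells are heated. They bind messenger RNAs and affect translation, splicing and the choice of polyadenylation site, and CIRBP released from cells is known to act on the receptor complex of TLR4 and MD-2. The heat shock genes, which encode chaperones and are driven by the transcription factor HSF1, respond to temperature in the opposite sense.

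The libraries held 20056111 to 30784090 estimated counts. Cd55, the targeted gene, had 6.23 to 8.95 CPM (its count relative to the library total after TMM scaling) in the CD55KO libraries and 110 to 125 CPM in the WT libraries, so the labels and the transcript go together. The MZ B cell markers Cr2, Cd1d1 and Notch2 and the general B cell gene Ms4a1 were present in all 6 libraries, with Cr2 at 1032 to 1171 CPM. A count of 0 in a library allows up to 0.0958 to 0.146 CPM (3 counts per library, counting error only). The T cell marker Cd3e lay below this floor in all libraries, whereas Cd3d, at 0.128 to 0.771 CPM, and Trac, at 0.194 to 0.566 CPM, were detected at low levels. The granulocyte marker S100a8 reached 0.284 CPM in WT replicate 3, and the myeloid marker Cd68 was at 10.7 to 16.8 CPM.

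Rbm3 (ENSMUSG00000031167) lies on the minus strand of chromosome X, from position 8138975 to 8145880 (GRCm38, GENCODE M21). Its level was 214.6, 217.9 and 223.6 CPM in CD55KO replicates 1 to 3 and 155.6, 150.9 and 147.7 CPM in WT replicates 1 to 3. Every CD55KO library lay above every WT library, and the lowest CD55KO level was 1.38 times the highest WT level. The mean was 151 ± 3.99 CPM in WT and 219 ± 4.51 CPM in CD55KO (SD, n = 3), a log2 fold change of 0.53 ± 0.07 (SE), or 1.44-fold.

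Cirbp (ENSMUSG00000045193) lies on the plus strand of chromosome 10, from position 80165985 to 80172786 (GRCm38, GENCODE M21). Its level was 186.0, 125.6 and 117.2 CPM in CD55KO replicates 1 to 3 and 78.3, 65.7 and 79.4 CPM in WT replicates 1 to 3. Again every CD55KO library lay above every WT library, here with CD55KO replicate 1 far above the other two of its genotype. The lowest CD55KO level was 1.48 times the highest WT level. The mean was 74.4 ± 7.60 CPM in WT and 143 ± 37.6 CPM in CD55KO (SD, n = 3), a log2 fold change of 0.94 ± 0.20 (SE), or 1.92-fold. Without CD55KO replicate 1 the log2 fold change of Cirbp was 0.71. CD55KO lay wholly above WT in Rbm3 and in Cirbp, a separation in this direction that 7.24% of the 13794 genes tested had. Because this contrast chose the genes, that share is given for scale only.

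**Figure D1:**
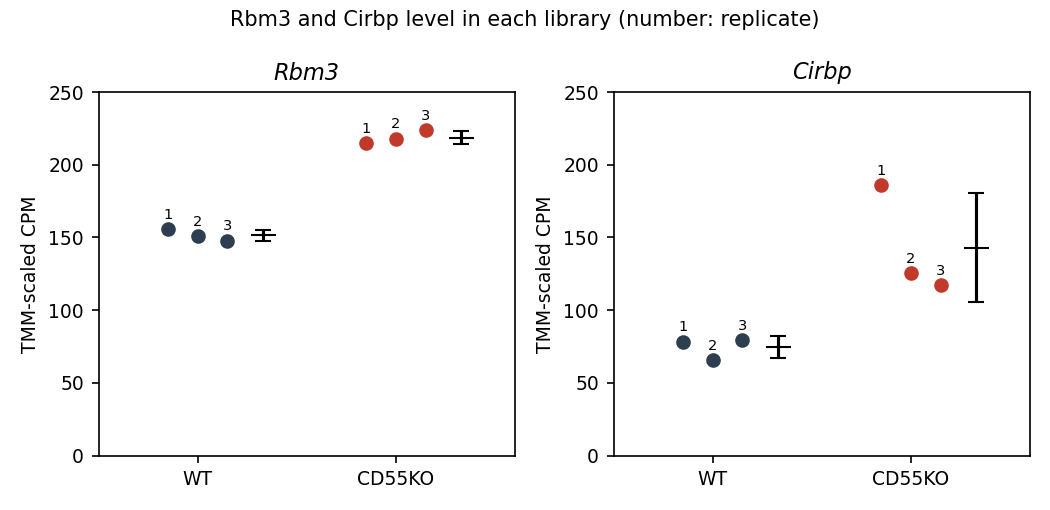
TMM-scaled CPM (y axis, from 0) of Rbm3 and Cirbp in each WT and CD55KO library; numbers are replicates, and the bar beside each group is the mean with its SD (n = 3). The CD55KO libraries sit at 214.6 to 223.6 CPM for Rbm3 and 117.2 to 186.0 CPM for Cirbp, above all WT libraries of the same gene.

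The pair differed in how closely replicates lay together. The coefficient of variation of Rbm3 was 2.06% in CD55KO and 2.63% in WT, where counting alone gives up to 1.77% in the shallowest library. For Cirbp it was 26.3% in CD55KO and 10.2% in WT, where counting alone gives up to 2.49%. The SD of log2 CPM within a genotype, pooled over both genotypes, was 0.034 for Rbm3 and 0.275 for Cirbp. Among the 2909 tested genes with a mean between 50 and 500 CPM the median of this SD was 0.093, 3.06% of these genes had a smaller SD than Rbm3, and 98.7% had a smaller SD than Cirbp. In these libraries Rbm3 was thus among the steadiest transcripts at its level and Cirbp among the most variable, and the spread of Cirbp came mainly from CD55KO replicate 1. The pair was chosen with the genotype difference known, and such a choice can favour genes with a small spread. These ranks are therefore given for scale only.

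**Figure D2:**
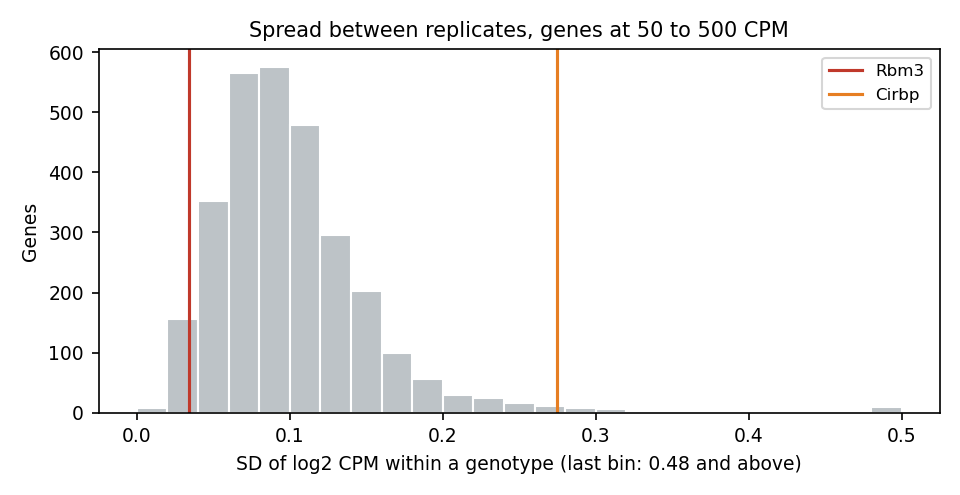
Number of genes (y axis) by the SD of log2 CPM within a genotype (x axis) for 2909 genes with a mean of 50 to 500 CPM; lines mark Rbm3 and Cirbp. Rbm3, at 0.034, lies in the left tail and Cirbp, at 0.275, in the right tail.

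To compare levels between the genes, CPM was divided by the merged length of all exons of the gene, 4698 bases for Rbm3 and 2604 bases for Cirbp. In WT, Rbm3 had 32.2 ± 0.85 and Cirbp 28.6 ± 2.92 CPM per kilobase (SD, n = 3). In CD55KO the levels were 46.6 ± 0.96 and 54.9 ± 14.4 CPM per kilobase. Averaged over the 6 libraries, Rbm3 lay above 90.2% and Cirbp above 90.7% of the tested genes on this scale, so the level of each was high and close to that of the other. The ratio of Rbm3 to Cirbp per length was 1.10, 1.27 and 1.03 in WT replicates 1 to 3 and 0.640, 0.962 and 1.06 in CD55KO replicates 1 to 3. The ratios of the genotypes overlapped. The ratio was below 1 in CD55KO replicates 1 and 2, lowest in replicate 1, and above 1 in the other 4 libraries. Both genes have transcripts of several lengths, and the true ratio depends on which of them the cells make.

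The RefSeq promoter table (GRCm38.p6) has 2 start sites for Cirbp, and the promoter of Rbm3 is not used here. The 250 bases before the first start site, at position 80167839 of chromosome 10, are shown because they hold the mild cold-responsive element, TCCCCGCC, a short motif bound by SP1 that is known from studies of CIRBP induction by cooling. The capitals mark this motif. The start site lies within the GENCODE M21 span of Cirbp, which begins at position 80165985. The bases shown are therefore not those before the annotated start of the gene.
Cirbp promoter, chr10:80167589-80167838, plus strand: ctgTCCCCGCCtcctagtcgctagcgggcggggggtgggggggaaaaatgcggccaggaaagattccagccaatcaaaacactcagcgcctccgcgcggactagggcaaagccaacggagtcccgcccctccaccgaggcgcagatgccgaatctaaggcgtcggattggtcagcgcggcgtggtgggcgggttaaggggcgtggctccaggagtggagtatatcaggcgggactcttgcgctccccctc

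Motifs were searched on both strands in windows from 250 bases before to 50 bases after each start site. The motif TCCCCGCC lies at bases -247 to -240 from the first start site of Cirbp and was found in 5.42% of the 32544 windows with distinct sequences. The GC box, GGGCGG, is also bound by SP1 and was found 3 times in the first window, at no base shared with TCCCCGCC, and in 35.9% of all windows. The CCAAT box, CCAAT, was found 2 times in the first window and in 37.4% of all windows. Paired heat shock half-sites, GAANNTTC, were not found in either Cirbp window and were found in 7.89% of all windows. The window of the second start site, at position 80168171, held the GC box alone of these motifs. The first window is rich in G and C, at 65.6% of the bases shown.

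The read counts of the genes differed in how far they could be assigned. The deposited value of Rbm3 was not a whole number in any of the 6 libraries, for example 5854.11 in CD55KO replicate 1 and 3204.19 in WT replicate 1. That of Cirbp was whole in all 6, for example 5073 and 1611 in the same libraries. In the GENCODE M21 transcripts no stretch of 31 bases was shared between Rbm3 and Cirbp, and none between Cirbp and any other gene, on either strand. Rbm3 shared at least 1 such stretch with 883 other genes and at least 50 with 6. Among the 883 were abundant genes, such as H2-D1, at a mean of 7380 CPM in WT and 6764 CPM in CD55KO, with 13 stretches of the 4891 of Rbm3. Of the 6, its processed pseudogene Rbm3-ps shared 372 and was at a mean of 0.350 CPM in WT and 0.305 CPM in CD55KO. Rbm3os, an antisense gene at positions 8145429 to 8147964, overlaps Rbm3 by 452 bases and averaged 0.698 ± 0.086 CPM in WT and 1.23 ± 0.18 CPM in CD55KO (log2 difference 0.82 ± 0.37 SE, quasi-likelihood test of edgeR, adjusted p = 0.564). No strand is marked by this kit, and reads of Rbm3 and Rbm3os in the overlap cannot be told apart. The level of Rbm3os, under 2 CPM throughout, may itself depend on how such reads were assigned. Like Rbm3, it was higher in every CD55KO library (1.12 to 1.43 CPM) than in every WT library (0.607 to 0.777 CPM). The part of Rbm3 reads in this was not tested.

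The protein-coding neighbours of the pair were not called. Around Rbm3, Wdr13 averaged 19.2 ± 3.57 CPM in WT and 17.3 ± 2.45 CPM in CD55KO, and Tbc1d25 averaged 8.77 ± 0.36 and 9.87 ± 1.48 CPM. Fam174c, which starts 158 bases beyond the end of Cirbp on the same strand, averaged 13.1 ± 1.07 CPM in WT and 13.2 ± 1.08 CPM in CD55KO. On the other side of Cirbp, Midn averaged 7.68 ± 0.42 CPM in WT and 8.05 ± 1.72 CPM in CD55KO. The libraries of the genotypes overlapped for each of these 4 genes (edgeR, adjusted p from 0.825 to 0.998). Of all tested genes 0.399% were called, 7.24% lay wholly higher in CD55KO and 6.84% wholly lower. Most genes were thus neither called nor apart, and the same in 4 neighbours says little about them.

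Other genes of the RBM family, named for the RNA-binding motif, differed in both directions, and none was called by edgeR. The family was taken as every symbol made of Rbm and a number, plus Rbmx, Rbmxl1, Rbmx2 and Rbms1 to Rbms3. It had 49 rows besides Rbm3 and Cirbp, of which 39 passed the filter on low counts, Rbm3os and Rbm3-ps included. By the quasi-likelihood test of edgeR 0 of the 39 passed the threshold, an adjusted p of 0.05, which 0.399% of all tested genes passed. Before adjustment, p was under 0.05 for 4 of them and for 8.6% of all tested genes. DESeq2 called 1 of them and limma-voom 0. At these shares a list of 39 would hold few calls or none, so the counts say little about the family. The median log2 fold change of the 39 was -0.02, with 17 positive and 22 negative values, against a median of 0.0014 over all tested genes.

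Rbm10, an X-linked splicing regulator, was the member with the smallest p. It had 78.2, 69.5 and 65.1 CPM in CD55KO replicates 1 to 3 and 89.6, 95.9 and 91.0 CPM in WT replicates 1 to 3. All CD55KO libraries lay below all WT libraries, in the direction opposite to Rbm3 (log2 difference -0.38 ± 0.08 SE, edgeR, adjusted p = 0.0501). Rbm10 lay so near the threshold that other settings called it, among them the fit without CD55KO replicate 1 (adjusted p = 0.0109). The next by p were Rbm28, at 53.2 ± 2.02 CPM in WT and 45.1 ± 2.21 CPM in CD55KO (adjusted p = 0.337), then Rbm3os, given above, and Rbm44. Rbm44 had the largest log2 fold change of the 39 rows, 1.11, but at low counts: its level was 1.03, 1.01 and 0.350 CPM in CD55KO and 0.389, 0.319 and 0.391 CPM in WT, with the genotypes overlapping (adjusted p = 0.579). Of the 34 family rows with at least 5 CPM in either genotype, the highest log2 fold change was 0.20, for Rbm12, and the lowest was that of Rbm10. Rbm3 and Cirbp lay above this range by construction of the choice.

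**Figure D3:**
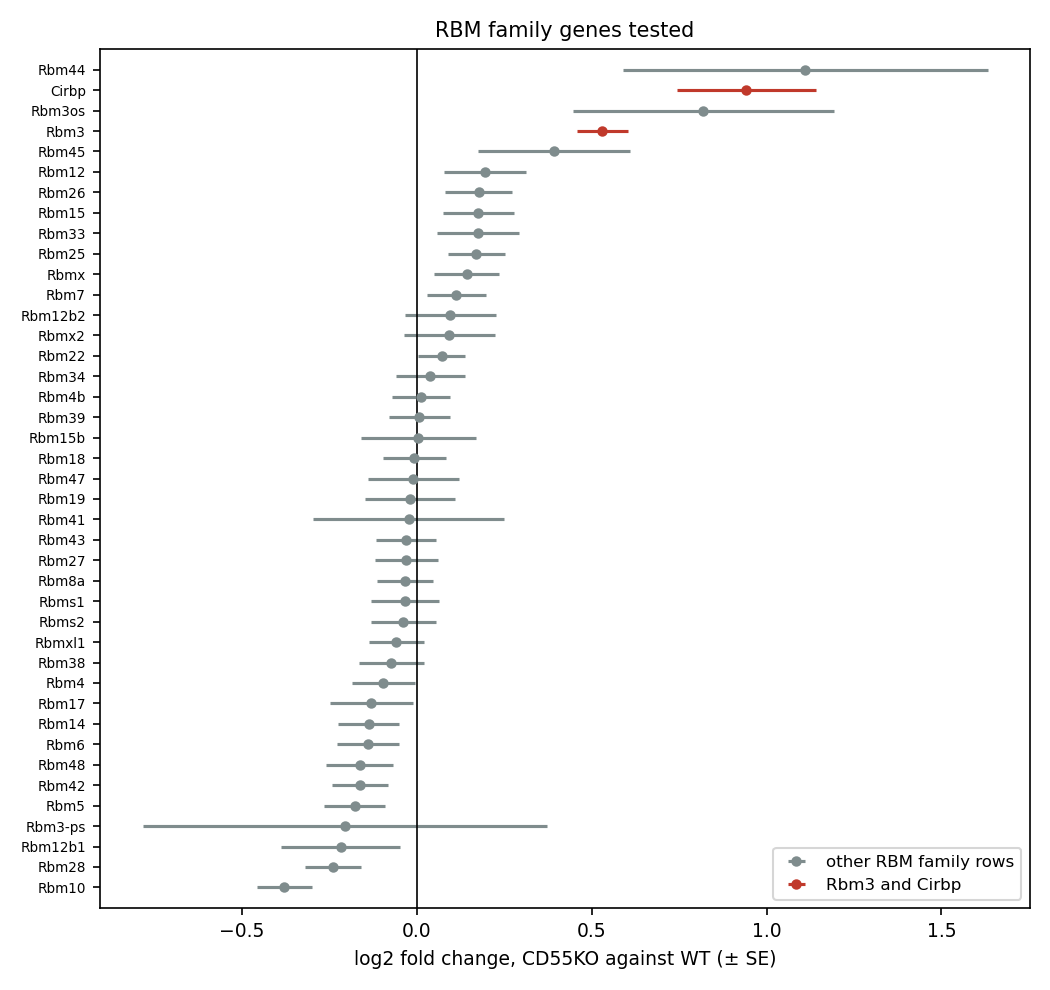
Log2 fold change of CD55KO against WT with its SE (x axis) for the 39 tested RBM family rows and, in red, Rbm3 and Cirbp, which were chosen on this contrast. Most rows lie near 0; Rbm44, Rbm3os and Rbm3-ps have wide errors and low counts.

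Most of the tested heat shock genes lay on the opposite side to Rbm3 and Cirbp, but not all with the genotypes apart. Of 20 tested members of a list of heat shock factors, chaperones and cochaperones, 3 fell and 17 did not pass, while 0.261% of all tested genes were called lower. The median log2 fold change of the list was -0.30, with 18 negative and 2 positive values. For 10 of the 20 all CD55KO libraries lay below all WT libraries, a separation in this direction seen in 6.84% of all tested genes. Of the 2 genes for heat shock transcription factors, Hsf1 was at 56.9, 66.6 and 65.4 CPM in WT and at 57.1, 48.8 and 60.2 CPM in CD55KO, and Hsf2 stayed under 8 CPM. The genotypes overlapped for both. They also overlapped for Dnajb1, at 113 ± 22.4 CPM in WT and 89.9 ± 15.7 CPM in CD55KO (edgeR, adjusted p = 0.709). The same held for Hspa1a and Hspa1b, which reached at most 3.02 and 1.79 CPM (adjusted p = 0.581 and 0.798). Hspb1 did not pass the filter on low counts.

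The members that fell were Stip1, Ahsa1 and Fkbp4, which encode cochaperones of HSP90. Stip1 had 106.9, 127.8 and 124.3 CPM in CD55KO replicates 1 to 3 and 161.8, 177.3 and 170.3 CPM in WT replicates 1 to 3 (log2 difference -0.50 ± 0.08 SE, edgeR, adjusted p = 0.0064). Ahsa1 fell from 217 ± 7.45 to 160 ± 11.0 CPM (adjusted p = 0.0141) and Fkbp4 from 194 ± 17.5 to 129 ± 18.4 CPM (adjusted p = 0.0149). Hsph1, an HSP110 chaperone, had the largest difference among the abundant members but did not pass by edgeR over all 6 libraries, with 66.6, 77.7 and 62.3 CPM in the WT libraries and 27.0, 40.9 and 39.6 CPM in the CD55KO libraries (adjusted p = 0.0535). Under 8 of the 13 alternative settings Hsph1 was called lower, limma-voom (adjusted p = 0.0097) and the fit without CD55KO replicate 1 (0.00067) among them. Stip1 stayed past the threshold whichever 1 of the 6 libraries was left out. Ahsa1 lost its call when CD55KO replicate 3 (adjusted p = 0.0631) or WT replicate 2 (0.0884) was left out, and Fkbp4 when WT replicate 1 (0.0752) or WT replicate 2 (0.0884) was.

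The library with the most Cirbp had the least of the heat shock transcripts. CD55KO replicate 1 was the lowest of all 6 libraries for 13 of the 20 tested heat shock genes, against 19.4% of all tested genes, and the lowest of the CD55KO libraries for 15 of the 20, against 36.0% of all tested genes. Hspa8, the constitutive HSP70, had 2524 CPM there and 3558 and 3495 CPM in the other CD55KO libraries. Dnaja1, an HSP40 cochaperone, had 224 CPM there against 379 and 370 CPM. Rbm3 did not follow this order, since its level in CD55KO replicate 1, 214.6 CPM, was close to and slightly below the 217.9 and 223.6 CPM of the other two. Relative to its WT mean, Cirbp was at 2.50 in CD55KO replicate 1, 1.69 in replicate 2 and 1.57 in replicate 3, while Rbm3 was at 1.42, 1.44 and 1.48.

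**Figure D4:**
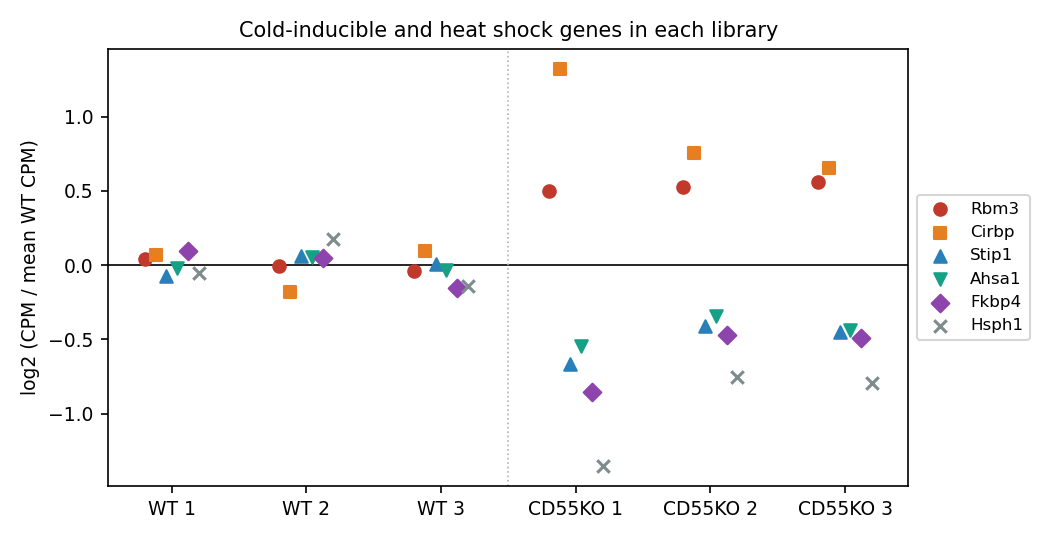
Log2 of CPM over the mean WT CPM of the same gene (y axis) in each library for Rbm3, Cirbp and the heat shock genes Stip1, Ahsa1, Fkbp4 and Hsph1. In the CD55KO libraries Rbm3 and Cirbp lie above 0 and the heat shock genes below 0, with the widest distance in CD55KO replicate 1, where Cirbp is at 1.32 and Hsph1 at -1.35.

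Known regulators, partners and targets of the pair were not called. The list holds the CLK kinases, whose activity depends on temperature, the splicing factors Hnrnph1 and Srsf5, the methyltransferase Prmt1 and the import receptor Tnpo1, which act on CIRBP, its kinases Gsk3b and Csnk2a1, the RBM3 target Rtn3 and the transcription factor Sp1. Of 12 tested members 0 passed by edgeR, DESeq2 or limma-voom, where 0.399% of all tested genes passed by edgeR. Before adjustment (edgeR) 0 had a p under 0.05, against 8.6% of all tested genes. At these shares a list this short would hold few calls or none, so the counts say little about its members. Their median log2 fold change was 0.07. Clk1, with the smallest p, was at 197, 217 and 179 CPM in WT and at 241, 231 and 203 CPM in CD55KO (edgeR, adjusted p = 0.595). Clk4 was at 101, 104 and 85.5 CPM in WT and at 110, 112 and 101 CPM in CD55KO (adjusted p = 0.661). The genotypes overlapped for both kinases. Srsf5 was highest in CD55KO replicate 1, at 452 CPM, with 295 to 337 CPM in the other 5 libraries.

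Genes with a cold shock domain, another fold for binding RNA, were not called. The list holds 8 genes, of which 4 were tested and 0 passed by edgeR, DESeq2 or limma-voom, where 0.399% of all tested genes passed by edgeR. Before adjustment (edgeR) p was under 0.05 for 1 of the 4, against 8.6% of all tested genes. That gene, Carhsp1, ranged from 19.7 to 25.9 CPM in WT and from 16.9 to 17.5 CPM in CD55KO (adjusted p = 0.397). With only 4 tested members, the counts of calls say little about this list.

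The circadian clock, whose transcripts CIRBP and RBM3 are known to bind, showed no called gene. Of 14 tested members 0 passed by edgeR, DESeq2 or limma-voom, where 0.399% of all tested genes passed by edgeR. Before adjustment (edgeR) 0 had a p under 0.05, against 8.6% of all tested genes. A list this short would hold few calls or none at these shares. The signs were even, with 7 positive and 7 negative log2 fold changes and a median of 0.0019. Ciart and Arntl, the members with the smallest p, had 4.97 to 6.56 and 14.5 to 21.1 CPM in WT, and 3.32 to 6.01 and 14.7 to 17.1 CPM in CD55KO (edgeR, adjusted p = 0.686 and 0.769).

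Of 4 genes for receptors of extracellular CIRBP, Tlr4, Ly96 and Trem1 passed the filter on low counts and Cd14 did not. Cd14 was at 0 in 3 of the 6 libraries and reached at most 0.210 CPM. Tlr4 ranged from 20.5 to 22.2 CPM in WT and from 16.7 to 19.4 CPM in CD55KO (edgeR, adjusted p = 0.617). Ly96, which encodes MD-2, ranged from 26.3 to 28.3 CPM in WT and from 28.3 to 30.3 CPM in CD55KO (adjusted p = 0.787). Of the 3 tested members 0 passed by edgeR, DESeq2 or limma-voom, where 0.399% of all tested genes passed by edgeR. Before adjustment (edgeR) 0 had a p under 0.05, against 8.6% of all tested genes. With so few members these counts say little about them.

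Immediate early genes respond within minutes to signals and to cell handling. Of 14 tested members 0 passed by edgeR or limma-voom and 1, Fosb, by DESeq2. By edgeR 0.399% of all tested genes passed. Before adjustment (edgeR) p was under 0.05 for 3 of them, against 8.6% of all tested genes. Their median log2 fold change was 0.10, with 12 positive values, against 50.4% positive over all tested genes. Fosb, an AP-1 subunit, was at 3.64, 3.93 and 3.77 CPM in WT and at 7.26, 6.84 and 5.25 CPM in CD55KO (edgeR, adjusted p = 0.132). Fos was at 3.35, 3.42 and 3.84 CPM in WT and at 8.58, 9.43 and 3.33 CPM in CD55KO (adjusted p = 0.410), so CD55KO replicate 3, where Rbm3 was highest, was at the WT level. Without that library, the 1 at odds with the others of its genotype, Fos was called higher (edgeR, adjusted p = 0.0057). It was not called when any other single library was left out (adjusted p from 0.549 to 0.714).

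Markers of other cells were read beside the pair. The summed level of 8 plasma cell markers was 236 to 252 CPM in CD55KO and 259 to 320 CPM in WT, mostly Xbp1, Slamf7 and Irf4. Tnfrsf17 did not pass the filter on low counts: it was at 0 in all CD55KO libraries and at 0.194, 0.032 and 0 CPM in WT replicates 1 to 3. Of the plasma cell markers tested only Xbp1, a transcription factor of the secretory pathway, passed by edgeR, where 0.399% of all tested genes passed. Xbp1 fell from 118 ± 14.0 to 78.5 ± 6.21 CPM (edgeR, adjusted p = 0.0047). Jchain, the joining chain of secreted antibody, was at 32.4, 10.9 and 16.4 CPM in WT and at 2.64, 9.26 and 9.88 CPM in CD55KO (adjusted p = 0.694). All CD55KO libraries lay below all WT libraries for Jchain, a separation seen in 6.84% of all tested genes. CD55KO replicate 1, the library with the most Cirbp, was the lowest. Prdm1, a transcription factor of plasma cells, ranged from 4.16 to 4.98 CPM in WT and from 2.38 to 3.44 CPM in CD55KO (adjusted p = 0.254). Of the 7 tested plasma cell markers, 5 had negative and 2 positive log2 fold changes. Slamf7 went from 66.5 ± 9.20 CPM in WT up to 78.6 ± 15.7 CPM in CD55KO (edgeR, adjusted p = 0.742). Irf4 went from 56.9 ± 7.02 up to 60.8 ± 4.95 CPM (adjusted p = 0.847). The summed level of 8 myeloid markers was 24.4 to 25.8 CPM in CD55KO and 18.1 to 23.2 CPM in WT, mostly Cd68. Cd68 averaged 16.1 ± 0.78 CPM in CD55KO and 11.8 ± 1.27 CPM in WT (edgeR, adjusted p = 0.209). Most of the list went the other way, with 4 negative and 2 positive log2 fold changes among the 6 tested myeloid markers. The 8 T cell markers summed to 41.5 to 48.9 CPM in CD55KO and 39.2 to 44.3 CPM in WT, nearly all of it Lck, and 6 follicular B cell markers to 1658 to 1714 and 1512 to 1738 CPM. Of the 6 follicular markers, 3 were highest in CD55KO replicate 1 and 1, Cr1l, was lowest there, at 81.3 CPM. Fcer2a, among the 3, was at 227 CPM there against 104 to 172 CPM in the other 5 libraries (edgeR, adjusted p = 0.946). The 6 erythroid markers ranged from 35.8 to 1989 CPM in CD55KO and from 105 to 4351 CPM in WT, without the order of Rbm3 or Cirbp. The part of these differences in the levels of Rbm3 and Cirbp was not tested, and in bulk RNA fewer cells of a type and less RNA per cell cannot be told apart.

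The genes with profiles most like those of the pair over the 6 libraries were found by a fixed rule. Likeness was measured as the root-mean-square difference between log2 CPM profiles, each centred on its mean, among 5547 named genes with a mean of at least 20 CPM. The 5 nearest to Rbm3 were Ano10, Bach2, Ehd3, Tbxa2r and Pacsin1, at differences of 0.087 to 0.111. Bach2, a transcription factor that restrains plasma cell differentiation, was at 30.0, 27.9 and 28.2 CPM in WT and at 41.2, 37.4 and 36.4 CPM in CD55KO. Tbxa2r, the thromboxane receptor gene, was at 29.1, 30.2 and 31.5 CPM in WT and at 37.3, 37.5 and 43.1 CPM in CD55KO. Since Rbm3 separates the genotypes, genes picked for likeness to it do so by choice, and no test is given for them.

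The profiles nearest to Cirbp were less close, at differences of 0.228 to 0.273, and belonged to Dynlt1b, Mcoln2, Zfp512b, Srgap2 and Stoml1. Zfp512b was at 19.9, 18.5 and 20.6 CPM in WT and at 37.9, 25.6 and 20.2 CPM in CD55KO, so that it had the high level in CD55KO replicate 1 but overlapped WT in CD55KO replicate 3. Mcoln2, an endolysosomal channel gene, was at 62.3, 60.8 and 62.5 CPM in WT and at 101.8, 87.3 and 78.9 CPM in CD55KO. Dynlt1b was at 61.9, 54.8 and 63.3 CPM in WT and at 101.6, 111.2 and 96.6 CPM in CD55KO. It shares 86.9% of its 31-base stretches with other genes in the GENCODE M21 transcripts, Dynlt1a, Dynlt1c and Dynlt1f among them, so its value is uncertain. Rbm3 stood at place 14 among the genes most like Cirbp, whereas Cirbp stood at place 3703 among those most like Rbm3, at the same difference of 0.306.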

How the data were processed

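The deposited table gives estimated counts per gene, made by the authors and not scaled to a common total; 30.9 to 31.9% of nonzero values in a library were not whole (tolerance 0.005). Per the labels' protocols, RNA came from an RNeasy micro kit and libraries from the SMARTer Ultra Low RNA kit. DRAGEN, edgeR and limma are named in the submitters' processing notes. The genome build, the annotation and the settings of the aligner were not given in the sources used here. Groups and replicate numbers came from the labels.

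Of 55774 rows, 287 repeats of gene IDs with identical values were removed, leaving 55487 genes, and counts were rounded. Genes were filtered by filterByExpr (minimum count 10, minimum total 15), which kept 13794. TMM scaling and the robust quasi-likelihood F-test of edgeR 4.0.16 (R 4.3.3) were used with genotype alone as the term, with Benjamini-Hochberg adjustment over all tested genes and a threshold of 0.05. Standard errors are the log2 fold change over the square root of F. DESeq2 1.42.0 and limma-voom (limma 3.58.1) were alternatives. The fitting was tested on simulated data. Log2 profiles used a pseudocount of 0.5 CPM. Positions and exon lengths came from GENCODE M21 by gene ID (99.4% found) and promoters from RefSeq (GRCm38.p6). No library was a duplicate of another: between replicates, chi-square divided by its degrees of freedom was 14.3 to 36.6.

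Rbm3, Cirbp and the gene lists were chosen with earlier results of these data known. The named genes are the pair, the 5 profiles nearest to each (predicted genes, names holding Rik, pseudogenes and immunoglobulin segments passed over), RBM family and list members past the threshold or else those with the smallest p, and genes overlapping or adjoining the pair. Hsph1, Hspa8, Dnaja1, Hsf1, Hsf2, Dnajb1, Hspa1a, Hspa1b, Hspb1, Srsf5, Fcer2a, Xbp1, Jchain, Prdm1, H2-D1, Trem1, Cd14, Rbm12 and the marker genes named singly were picked after their values were seen. The settings tried were DESeq2 size factors, library totals only, a block for the replicate number, the DESeq2 Wald test, limma-voom, no count filter, a filter of 50 counts in 3 libraries, another gene length and leaving out each library in turn. Some genes of the lists are not reported here.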

Additional observations from a re-analysis of the deposited data

How the results depend on the processing

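Over the 13 alternatives, the replicate block and each left-out library included, the log2 fold change of Rbm3 ranged from 0.51 to 0.55. That of Cirbp ranged from 0.71 to 1.06. The 0.71 came without CD55KO replicate 1, against 0.94 with all libraries. Both moved by less than the SD between replicates, which dropping 1 of 3 libraries can hardly exceed, so this does not show stability. Whether the replicate numbers pair the libraries was not settled. Same-numbered libraries had correlations of their deviations of 0.093, -0.161 and 0.201. Replicates 1 and 3 matched their own number best, and replicate 2 did not. A block for the replicate number lowered the SE of the Cirbp change from 0.20 to 0.11, while that of Rbm3 went from 0.07 to 0.08. With the replicate number as a block the log2 fold changes were 0.53 for Rbm3 and 0.91 for Cirbp, 64 genes were called and 6 of the pathway genes, against 55 and 3 without it. The DESeq2 Wald test called 137 genes and 6 pathway genes, and without a count filter edgeR called 232 and 10. Leaving out each library in turn gave 37 to 53 called genes and 1 to 4 pathway genes, the 1 being Stip1 without WT replicate 2. Of the RBM family, 1 gene, Rbm10, was called with DESeq2 size factors, by the DESeq2 Wald test, without a count filter, with the filter of 50 counts and without CD55KO replicate 1, and 0 or 1 over the left-out libraries. The ratio of Rbm3 to Cirbp ranged from 0.801 to 1.01 in CD55KO and from 1.07 to 1.19 in WT over the left-out libraries, and was 0.876 and 1.12 with mean transcript lengths. The cause of these differences was not tested. A count of 0 in a library allows up to 0.0958 to 0.146 CPM (counting error only), so lower levels were not measured.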
